A study of Mus musculus with 36 samples.

Results

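The 10 genes described here belong to hepatic triglyceride storage and export and were followed through mouse liver development. They were chosen by name: Mttp, Dgat1, Dgat2, Plin2, Plin3, Plin4, Plin5, Cideb, Cidec and Pnpla2. All 10 were found among the 21889 genes of the expression table. The mRNA of whole livers was sequenced from male C57BL/6 mice (C57BL/6J in the study's methods) at 12 ages, with 3 mice per age and 36 in all, and no mouse was treated or genetically altered. The ages were Day -2 (2 days before birth), Day 0 (newborn, before the first milk), Days 1, 3, 5, 10, 15 and 20 (suckling), and Days 25, 30, 45 and 60 (after weaning at 21 days of age, on standard chow). By the study's methods, livers of Days 0 and 1 were timed from birth and those of Day 3 onward were collected at a fixed morning hour. Each animal at an age was a separate sample. The study drew its mice at random from several litters, and which mice shared a litter is not given, so p-values measure the spread between these mice.

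A triglyceride molecule made at the endoplasmic reticulum of a hepatocyte has a choice of fates. It can be stored in a cytosolic lipid droplet, a core of neutral lipid under a single layer of phospholipid and coat proteins, or it can be loaded onto apolipoprotein B and leave the cell in very-low-density lipoprotein (VLDL). The DGAT enzymes make the triglyceride, microsomal triglyceride transfer protein (the product of Mttp) loads it onto apolipoprotein B, the perilipins coat the droplet, the CIDE proteins promote droplet fusion and lipoprotein lipidation, and adipose triglyceride lipase (the product of Pnpla2) begins its breakdown. At birth the liver passes from a supply of mainly glucose across the placenta to fat-rich milk, and at weaning from milk to carbohydrate-rich chow.

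Levels are given as FPKM, fragments per kilobase of transcript scaled to the number of mapped fragments, which allows levels of different genes to be set side by side. Differences between ages were tested with limma, a linear model fitted to every gene at once, on log2(FPKM + 1). It was fitted to 11149 genes, those whose mean reached 1 FPKM at some age, and a gene was said to rise or fall when its Benjamini-Hochberg adjusted p was under 0.05. Of the 10 genes, 9 entered the fit. Plin4 was too low, and Cidec entered through its means at Days 0, 1, 3 and 5, the ages at which it was highest.

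Some libraries stood apart. One newborn liver, Day 0 replicate 1, had a summed skeletal muscle marker level (6 genes) of 1169 FPKM, while the other newborns had 4.4 and 4.1 FPKM. Its summed heart muscle markers were also high, at 88.8 FPKM compared with 2.5 FPKM in each of the others, and its 6 hepatocyte markers summed to 38200 FPKM, the highest of the newborns. In 3 libraries, Day 25 replicate 2, Day 30 replicate 1 and Day 45 replicate 3, the level of long transcripts (at least 5000 bases, 638 genes) relative to short ones (under 1500 bases, 1443 genes) was lowest. Their contrast was -0.56, -0.70 and -0.44 on the log2 scale around the mean of their age, and the other 33 libraries ranged from -0.40 to 0.48. The 6 hepatocyte markers summed to between 7071 and 7825 FPKM at Day -2. They summed to between 29400 and 38200 FPKM at Day 0 and between 44290 and 51310 FPKM at Day 60. The 6 erythroid markers summed to between 127000 and 184900 FPKM at Day -2. Their sums were between 59980 and 80340 FPKM at Day 0 and between 649 and 713 FPKM at Day 60. Fewer hepatocytes and less RNA per hepatocyte cannot be told apart in whole liver. The part of this shift in the rises at birth described below was not tested. Exocrine pancreas markers varied between 4.5 and 18790 FPKM among mice.

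The 10 genes lie on chromosomes 3, 4, 6, 7, 14, 15 and 17 of mm9, the genome the table was built on, with positions taken from the GENCODE annotation of that build. Plin4 (chr17:56240014-56249225), Plin5 (chr17:56251024-56257019) and Plin3 (chr17:56418385-56429934) lie near each other on the minus strand of chromosome 17, with 1798 bp between Plin4 and Plin5 and 161365 bp between Plin5 and Plin3. The others are Mttp (chr3:137752819-137806352), Dgat1 (chr15:76332445-76342381), Dgat2 (chr7:106302173-106331223), Plin2 (chr4:86294290-86315964), Cideb (chr14:56372882-56377295) and Cidec (chr6:113374628-113385754), all on the minus strand, and Pnpla2 (chr7:148641097-148646642) on the plus strand. Plin4 and Cideb overlap a gene on the opposite strand by 6 and 20 bp at their ends. The library kit did not keep strand, so reads within those few bases cannot be assigned.

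Promoter windows from RefSeq (GRCm38.p6, 250 bases before to 50 after the start) were found for 8 of the 10 genes, that is, all but Dgat1 and Dgat2. The 5 windows printed here belong to the genes that rose between Day 0 and Day 1 and had a window. They were chosen by that step alone. Over the age means of log2(FPKM + 1), correlations among these genes ranged from 0.14 (Cideb and Cidec) to 0.93 (Mttp and Cideb). Bases in capitals are matches to the motifs searched on both strands, which were the TATA box as TATAAA, the CCAAT box, the E-box as CACGTG, the hexamer of nuclear receptors as AGGTCA, the GC box as GGGCGG and a direct repeat of that hexamer with 1 base between (DR1, AGGTCANAGGTCA, with up to 2 mismatches), the form bound by PPAR and HNF4 receptors. For Plin5 and Cidec RefSeq gave 2 windows, and only the first of each is printed. The windows are chr3:138143369-138143668 for Mttp, chr4:86670010-86670309 for Plin2, chr17:56117499-56117798 for Plin5, chr14:55758375-55758674 for Cideb and chr6:113435711-113436010 for Cidec, each on the minus strand and printed 5′ to 3′.
Mttp: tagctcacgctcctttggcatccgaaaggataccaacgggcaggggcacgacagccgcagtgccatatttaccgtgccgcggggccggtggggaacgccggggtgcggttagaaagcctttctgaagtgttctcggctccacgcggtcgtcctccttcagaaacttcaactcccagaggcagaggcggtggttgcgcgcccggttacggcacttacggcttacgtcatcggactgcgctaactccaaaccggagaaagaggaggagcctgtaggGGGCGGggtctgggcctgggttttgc
Plin2: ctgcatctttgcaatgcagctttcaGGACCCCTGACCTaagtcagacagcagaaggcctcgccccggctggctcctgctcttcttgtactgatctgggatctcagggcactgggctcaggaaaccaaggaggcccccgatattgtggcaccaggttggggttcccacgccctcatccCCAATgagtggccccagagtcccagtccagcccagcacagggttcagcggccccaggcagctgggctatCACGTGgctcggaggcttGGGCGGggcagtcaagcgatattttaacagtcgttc
Plin5: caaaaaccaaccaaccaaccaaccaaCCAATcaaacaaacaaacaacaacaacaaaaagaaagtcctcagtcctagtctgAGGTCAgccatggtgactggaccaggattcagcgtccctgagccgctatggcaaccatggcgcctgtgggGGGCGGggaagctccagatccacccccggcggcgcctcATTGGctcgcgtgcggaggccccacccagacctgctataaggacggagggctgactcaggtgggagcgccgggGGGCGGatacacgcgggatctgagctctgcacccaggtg
Cideb: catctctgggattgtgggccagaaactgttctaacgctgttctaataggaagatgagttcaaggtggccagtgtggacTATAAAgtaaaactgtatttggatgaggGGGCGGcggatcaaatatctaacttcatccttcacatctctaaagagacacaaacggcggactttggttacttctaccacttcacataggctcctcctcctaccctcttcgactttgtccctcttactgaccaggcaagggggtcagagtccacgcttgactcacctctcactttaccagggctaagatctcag
Cidec: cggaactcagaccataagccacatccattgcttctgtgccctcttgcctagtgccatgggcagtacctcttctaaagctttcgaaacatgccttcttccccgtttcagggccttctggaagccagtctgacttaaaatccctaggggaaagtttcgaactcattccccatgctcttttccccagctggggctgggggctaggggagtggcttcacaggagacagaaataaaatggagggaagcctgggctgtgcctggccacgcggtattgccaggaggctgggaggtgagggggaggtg

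Of these windows only that of Plin2 held a DR1 match, at bases -225 to -213 from the start, and it included an AGGTCA match at -218 to -213. A DR1 match was present in 3.86% of the 32851 mouse promoter windows of this length. Plin2 also had CACGTG across its start (7.15% of windows), a CCAAT box at -73 to -69 (37.4% of windows) and a GC box at 15 to 20 (35.7% of windows). Plin5 had CCAAT at 2 places, AGGTCA at -170 to -165 (16.3% of windows) and 2 GC boxes, and Cideb had TATAAA at -172 to -167 (13.6% of windows) and a GC box. Mttp had 1 GC box after its start. The second window of Plin5 held AGGTCA at 14 to 19 and GC boxes at -239 to -234 and -53 to -48. Neither window of Cidec matched any of the motifs. A match is a description of the letters only, and nothing about binding was measured.

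The summed level of the 10 genes was lowest before birth and highest on the first day of suckling. It was 294.7 ± 14.2 FPKM (SD, n = 3 mice) in the prenatal livers, 380.4 ± 22.3 FPKM in the newborns and 967.8 ± 125 FPKM at Day 1, and its age means then lay between 576 and 695 FPKM. Of the 10, 6 had their highest age mean at Day 1 (Dgat1, Plin2, Plin3, Plin5, Cidec and Pnpla2). The lowest was at Day -2 for 8, the exceptions being Plin2 (Day 20) and Plin3 (Day 15). The ratio of the highest to the lowest age mean ran from 1.89 for Dgat1 to 49.2 for Plin5 and 244 for Cidec. Dgat2, Plin2 and Cideb were the most abundant of the genes at every age, in an order that changed.

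**Figure D1:**
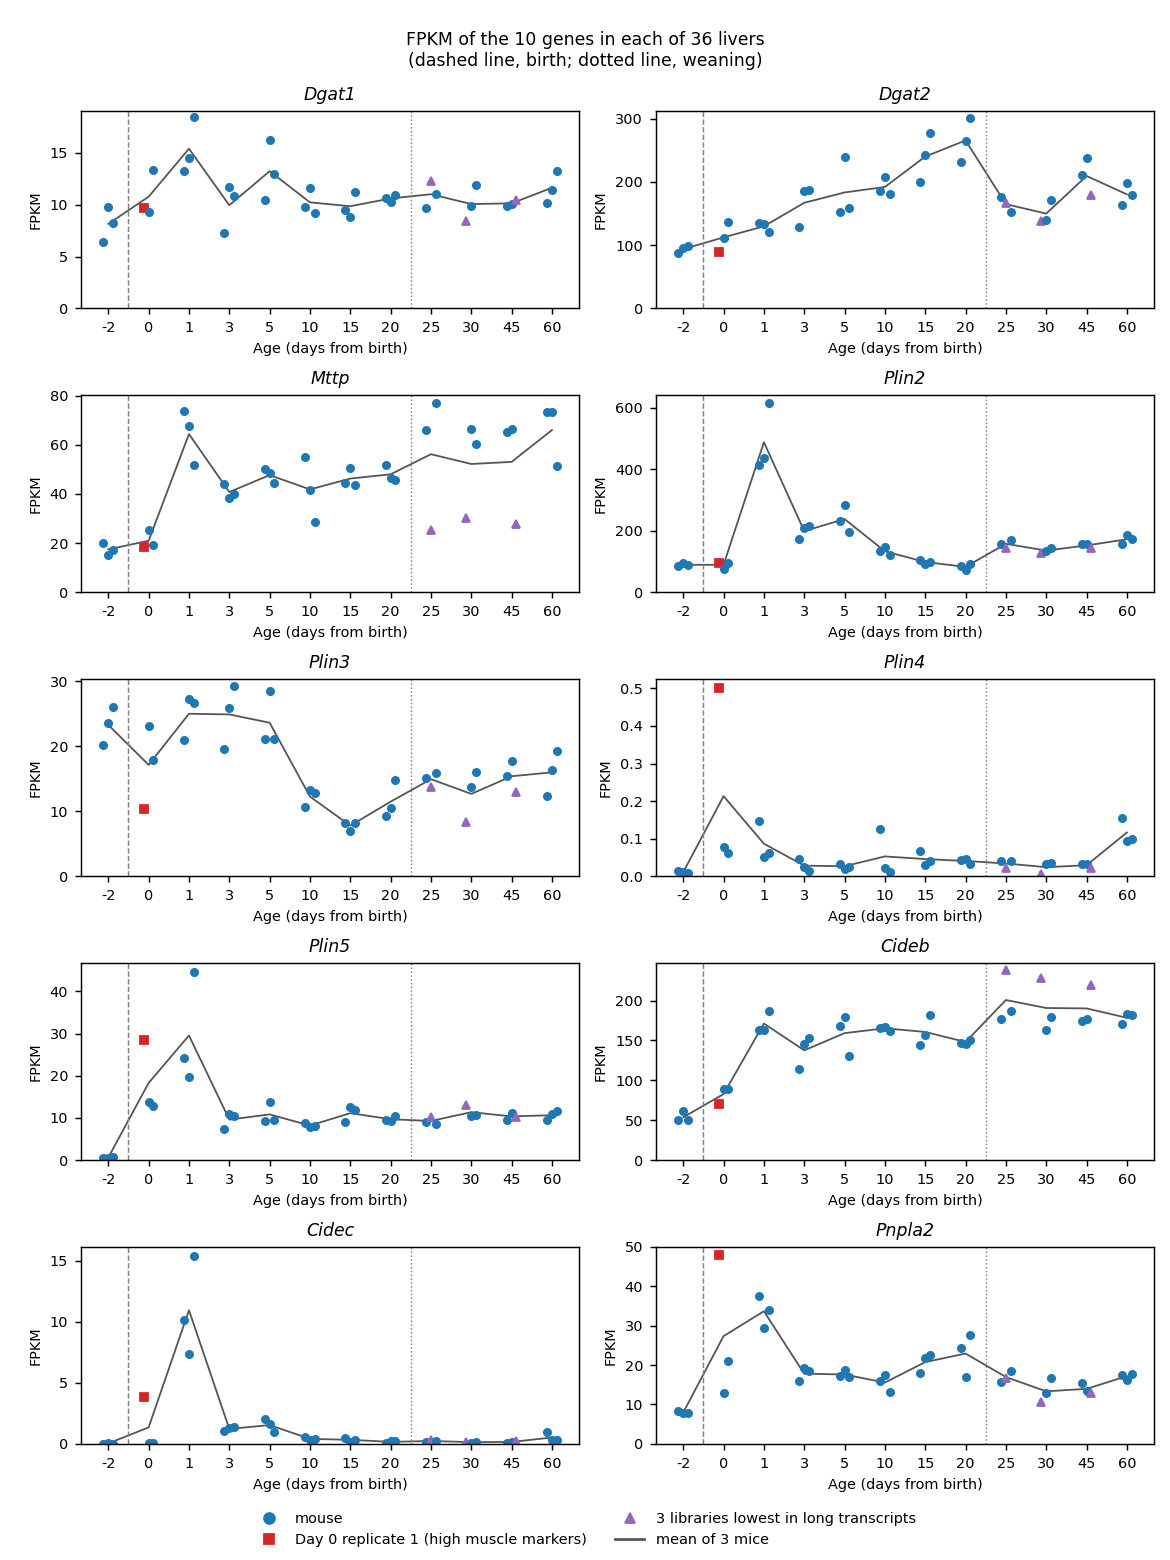
FPKM (y axis, linear from 0, a separate scale per gene) of the 10 genes at each age in days from birth (x axis, ages evenly spaced). Each point is 1 of 36 mice and the line joins the means of 3 mice. Red squares mark the newborn with high muscle markers and purple triangles the 3 libraries lowest in long transcripts. Plin2 peaks at 487.8 FPKM at Day 1, and the triangles lie below the other mice of their age for Mttp.

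Relative to Day 60, the adult reference, all 9 tested genes differed in at least 1 age by limma, where 90.7% of all genes did. That count ranged from 8 to 9 when 1 mouse was left out. At Day -2 8 of the 9 differed (75.1% of all genes), 7 of them lower, the exception being Plin3, which was higher. At Day 0 5 differed (63.9% of genes), with only Plin5 higher, and at Day 1 6 differed (65% of genes), with only Dgat2 lower. The count was then 2 at Day 3 (66% of genes) and 3 at Day 5 (65.4%). For Day 10 it was 1 (46%), for Day 15 2 (27.4%) and for Day 20 2 (15.9%). These counts are on the FPKM scale only. After weaning limma called none of the 9 at Day 25 (7.42% of genes), Day 30 (3.56%) or Day 45 (0.233%). At an unadjusted p under 0.05 the count was 0 at Days 25 and 45 and 1 at Day 30, and by analysis of variance with Dunnett's test it was 0 at all 3 ages. Dunnett's test, which is applied gene by gene, also called fewer earlier, with 0 at Day 3 and 1 at Day 5. By that test Dgat1 differed from Day 60 at 0 ages. Several counts rested on 1 mouse. At Day -2 the call of Plin3 was lost without Day -2 replicate 2 (0.52) or 3 (0.45) or Day 60 replicate 1 (0.37) or 2 (0.55), and that of Dgat1 without Day -2 replicate 1 (-0.33) or Day 60 replicate 3 (-0.39). At Day 0 that of Plin5 was lost without Day 0 replicate 1 (0.29) or Day 60 replicate 1 (0.56). The count at Day 3 was 1 without any 1 of its mice or without Day 60 replicate 1 or 2, and that at Day 5 was 0 without Day 5 replicate 2 and 1 without Day 60 replicate 2. The count at Day 10 was 0 without Day 10 replicate 3 or Day 60 replicate 2 or 3, and 2 without Day 25 replicate 2. The count at Day 20 was 1 without Day 20 replicate 2 or 3 or Day 60 replicate 1 or 3.

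How libraries are scaled mattered to these counts, because most genes are higher before weaning in FPKM. The median gene lay above Day 60 by 0.56, 0.47 and 0.53 at Days -2, 1 and 5 on the log2 scale. With libraries set to a common upper quartile instead, those medians were 0.15, 0.15 and 0.09. On that scale none of the 9 genes rose above Day 60 at Day -2, 0, 3, 5, 10 or 15, and 5 fell at Day 5 (Mttp, Dgat1, Dgat2, Cideb and Pnpla2) in place of 3 that rose. At Day 3 6 of the 9 differed on that scale, all of them lower, where 57.5% of all genes differed, and at Day 5 54.3% of all genes did. At Day 1 Plin2, Plin5 and Cidec still rose, by 0.99, 0.86 and 2.63, and Cideb (-0.55) and Dgat2 (-0.95) fell. Of all genes called at Day 1, 82% were higher than Day 60 in FPKM and 62.5% with the common upper quartile. At Day -2 those shares were 75.2% and 58.4%, and at Day 5 they were 87% and 61.3%.

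Between Day -2 and Day 0, 4 of the 9 genes rose (13.1% of all genes) and 0 fell (41.4% of all genes; at an unadjusted p under 0.05, 1 was lower). The 4 were Plin5, Cideb, Cidec and Pnpla2. From Day 0 to Day 1, 6 rose (23.7% of genes) and 0 fell (7.88% of genes; 0 lower at an unadjusted p under 0.05): Mttp, Dgat1, Plin2, Plin5, Cideb and Cidec. Over suckling, from Day 1 to Day 20, Dgat2 alone rose (8.61% of genes) and 5 fell (54.2% of genes), namely Dgat1, Plin2, Plin3, Plin5 and Cidec. Across weaning, from Day 20 to Day 25, Plin2 rose (3.94% of genes) and Dgat2 fell (3.26% of genes), a count of 2 that was 1 without Day 20 replicate 3 or Day 25 replicate 3. From Day 25 to Day 60 limma found that 0 rose (3.24% of genes) and 0 fell (4.18% of genes), with 0 at an unadjusted p under 0.05. The median difference of the 9 genes was 0.36 from Day -2 to Day 0, 0.67 from Day 0 to Day 1 and -0.55 from Day 1 to Day 20, and over all genes it was -0.29, 0.19 and -0.48. With the common upper quartile 5 rose and 0 fell at birth (43.5% of all calls were rises, 24.1% in FPKM). These 5 were Dgat1, Dgat2, Plin5, Cideb and Pnpla2, and Cidec was not among them. On that scale 4 rose and 0 fell to Day 1 (55% and 75%), namely Mttp, Plin2, Cideb and Cidec. To Day 20, 1 rose and 4 fell (39.3% and 13.7%). The counts across weaning and from Day 25 to Day 60 were the same on both scales.

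**Figure D2:**
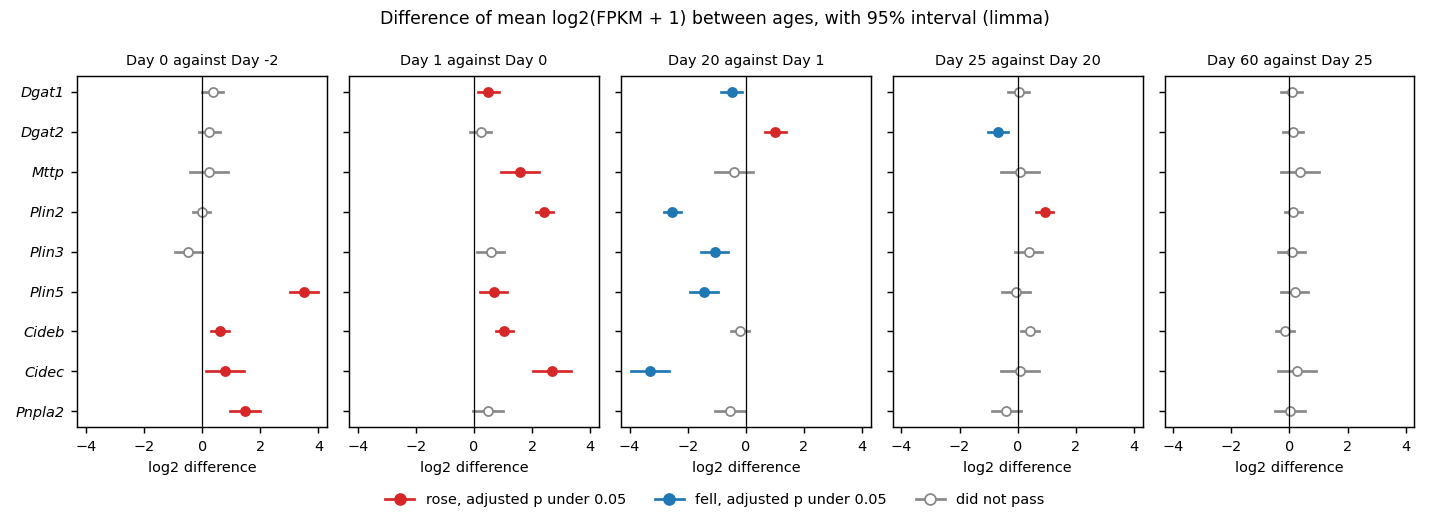
Difference in mean log2(FPKM + 1) between ages (x axis) for the 9 tested genes (y axis), 1 panel per step. Points are estimates and lines are 95% intervals from limma. Filled red points rose, filled blue points fell and open points did not pass. Plin5 moves by 3.51 at birth, Plin2 by 2.42 and Cidec by 2.68 on the first day of suckling, and Plin2 by 0.92 across weaning.

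The enzymes of the last step of triglyceride synthesis, DGAT1 and DGAT2, are unrelated proteins that both join a fatty acid to diacylglycerol. Dgat2 mRNA was by far the more abundant, making up from 89.3% of the pair at Day 1 to 96.1% at Day 20. Dgat2 was 87.2, 95.2 and 98.6 FPKM at Day -2 and 135.6, 133.7 and 120.0 FPKM at Day 1. At Day 20 its mice had 230.6, 264.8 and 300.9 FPKM, and at Day 25 176.0, 166.8 and 151.6 FPKM. Every Day 20 mouse lay above every mouse of Day 1 and of Day 25. The rise from Day 1 to Day 20 was 1.02 ± 0.17 (log2, SE, limma adjusted p = 1.13e-05) and the fall across weaning -0.68 ± 0.17 (adjusted p = 0.0125). The latter call was lost without Day 20 replicate 3 (-0.58) or without Day 25 replicate 3 (-0.62). Day 20 was also higher than Day 60, by 0.55 (adjusted p = 0.0276). This call was lost without Day 20 replicate 2 (0.55) or 3 (0.46) or without Day 60 replicate 1 (0.48) or 3 (0.55). Days -2, 0 and 1 were lower than Day 60, by -0.93, -0.70 and -0.47, the last of which was lost without Day 1 replicate 3 (-0.41) or Day 60 replicate 2 (-0.40). At Days 30 and 45 the mice ranged from 138.9 to 171.4 FPKM and from 178.7 to 237.8 FPKM, so they did not overlap.

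Dgat1 varied least of the 10 genes. It was 6.37, 9.83 and 8.28 FPKM at Day -2, 9.70, 9.26 and 13.4 FPKM at Day 0, and 13.3, 14.5 and 18.4 FPKM at Day 1. The ages overlapped, since the highest newborn lay just above the lowest Day 1 mouse. At the 9 later ages the means lay between 9.86 and 13.2 FPKM. The rise to Day 1 was 0.48 ± 0.18 (adjusted p = 0.0372) and the fall to Day 20 was -0.49 ± 0.18 (adjusted p = 0.0182). The rise was lost when Day 0 replicate 1 (0.42), Day 0 replicate 2 (0.39), Day 1 replicate 2 (0.52) or Day 1 replicate 3 (0.35) was left out, and the fall without Day 1 replicate 3 (-0.36). With the upper quartile scaling the rise was 0.34 and did not pass, and the change to Day 20 was 0.02. The ratio of mean Dgat2 to mean Dgat1 FPKM was 8.42 at Day 1 and 25.0 at Day 20, but the mean of the ratio within libraries over the 6 suckling ages and the 4 ages after weaning differed by 0.04 on the log2 scale (exact permutation test over ages, p = 0.895).

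Mttp, whose product loads triglyceride onto apolipoprotein B and is required for VLDL secretion, rose on the first day of suckling. It was 20.1, 15.1 and 17.2 FPKM at Day -2 and 18.3, 25.5 and 19.1 FPKM at Day 0. At Day 1 the mice had 73.9, 67.5 and 51.8 FPKM. All Day 1 mice lay above all newborns, and the rise was 1.57 ± 0.32 (2.97-fold, adjusted p = 0.000535). From Day 3 to Day 20 its means lay between 40.8 and 48.0 FPKM, and at Day 60 it was 73.3, 73.2 and 51.4 FPKM. The prenatal and newborn levels were below Day 60 by -1.85 (adjusted p = 8.24e-06) and -1.60 (adjusted p = 7.80e-05). No other age differed from Day 60 for this gene in FPKM. With the upper quartile scaling Days 3, 5 and 10 were also lower, by -1.28, -1.06 and -0.85.

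After weaning Mttp was split within ages. The mice had 66.0, 25.4 and 77.1 FPKM at Day 25, 30.1, 66.3 and 60.2 FPKM at Day 30, and 65.04, 66.3 and 27.8 FPKM at Day 45. The low mouse of each age was the library low in long transcripts. Mttp has 4272 bases in its longest annotated transcript, fewer than the 5000 from which transcripts were counted as long. Over the 12 ages, the library lowest in long transcripts was the lowest of its age for Mttp in 10 and the highest in 0. Cideb, whose longest transcript has 1217 bases, was highest in that library in 9 of the 12 ages. Among the 10 genes, Mttp was the one most often lowest in that library and Cideb the one most often highest. Other members were mixed: Dgat2 was lowest in 5 ages and highest in 4, Plin2 in 4 and 6, Plin3 in 4 and 4, and Pnpla2 in 4 and 5. Apob, which encodes the protein that MTTP lipidates and has a transcript of 13934 bases, was looked at after the Mttp values were seen. It was 55.3, 14.1 and 20.2 FPKM at Day 25, 6.57, 48.5 and 18.6 FPKM at Day 30, and 39.6, 29.2 and 15.7 FPKM at Day 45. Its lowest mouse was the same as for Mttp at each of these ages. The contribution of transcript length to these values was not tested.

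Without those 3 libraries, a setting chosen after the data were seen, Mttp fell from Day 1 to Day 20 (-0.40) and its mean over suckling was below that after weaning (-0.48), and both passed the test. The second passed already without Day 25 replicate 2 alone (-0.29). With all mice these differences were -0.40 (adjusted p = 0.276) and -0.17 (adjusted p = 0.282). The change from Day 25 to Day 60 went from 0.36 to -0.13 without them and did not pass in either case. With the upper quartile scaling and all mice, the difference between Days 20 and 1 was 0.14, in the other direction.

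**Figure D3:**
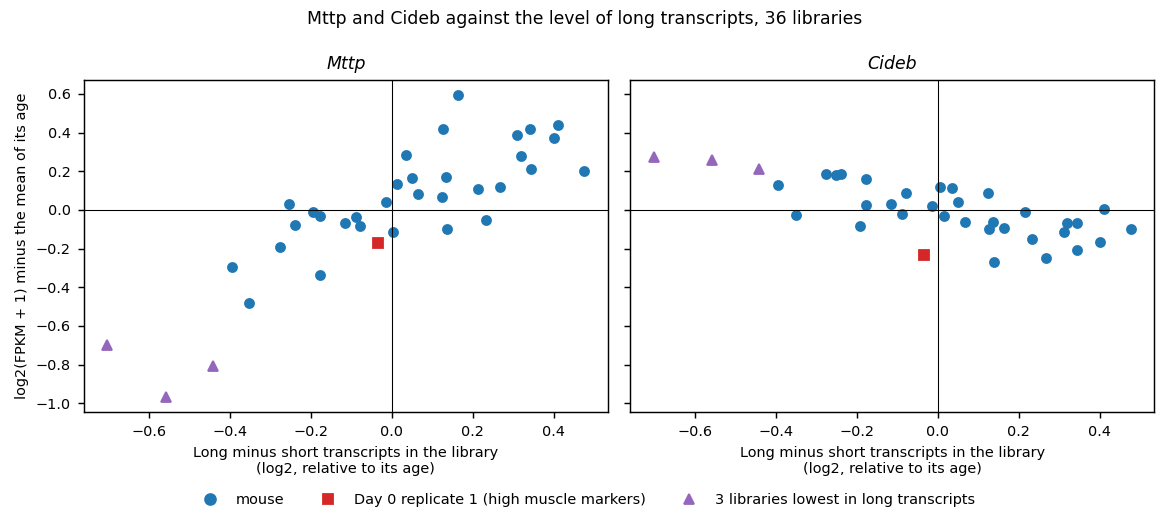
Mttp (left) and Cideb (right), as log2(FPKM + 1) minus the mean of the age (y axis), against the level of long relative to short transcripts in the same library (x axis, log2, relative to its age). Each point is 1 of 36 libraries. The purple triangles are the 3 libraries at -0.44 or lower, where Mttp lies below and Cideb above the mean of the age. The red square is the newborn with high muscle markers.

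Among the droplet coat genes, Plin2 was the main perilipin at every age. PLIN2 (adipophilin) coats droplets in most cell types and is degraded when it is not bound to lipid. Plin2 was 86.6, 94.3 and 88.4 FPKM at Day -2 and 95.9, 76.99 and 94.8 FPKM at Day 0, and these mice overlapped. A day after birth it was 413.0, 436.5 and 614.0 FPKM. All Day 1 mice lay above all mice of the other ages, the next highest being 284.1 FPKM at Day 5. The rise was 2.42 ± 0.14 (5.36-fold, adjusted p = 3.67e-13). It was 487.8 FPKM on average, 2.78-fold the level at Day 60 on the log2(FPKM + 1) scale (adjusted p = 3.25e-10).

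The high Plin2 level did not last through suckling. Over Days 3, 5, 10 and 15 the means were 199.2, 238.1, 133.5 and 98.4 FPKM. At Day 20 the mice had 86.2, 71.4 and 91.1 FPKM, the lowest of the 12 ages, and at Day 25 they had 158.4, 145.2 and 169.5 FPKM. Thus all mice 4 days after weaning lay above all mice the day before it. The fall from Day 1 to Day 20 was -2.53 ± 0.14 (adjusted p = 4.51e-15) and the rise across weaning was 0.92 ± 0.14 (1.90-fold, adjusted p = 3.13e-05). Day 20 was below Day 60 by -1.05 (adjusted p = 1.70e-06), and Days 10 and 15 were also below it, by -0.37 and -0.80. The call at Day 10 was lost without Day 10 replicate 1 (-0.37) or 3 (-0.30) or without Day 60 replicate 2 (-0.30) or 3 (-0.37). From Day 25 to Day 60 the means lay between 135.7 and 172.4 FPKM. Averaged over ages, the suckling level was above that after weaning by only 0.15 (adjusted p = 0.0395). This call was lost in 14 of 36 fits that left out 1 mouse and with TPM (0.08). With the upper quartile scaling the difference was called in the other direction, at -0.27 (limma adjusted p = 0.000707).

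Plin3 encodes TIP47, a cytosolic protein that moves onto small and forming droplets. It was highest from Day 1 to Day 5, when its means were 25.0, 24.9 and 23.7 FPKM, and lowest at Day 15, at 8.22, 6.99 and 8.15 FPKM. Before birth, at Day -2, its mean was nearly as high, at 23.3 FPKM, and those mice overlapped the mice of Day 5. Every Day 15 mouse lay below every mouse of Days 1, 3, 5 and 60. Day 15 was below Day 60 by -0.93 (adjusted p = 0.00260) and Day 1 was above it by 0.63 (adjusted p = 0.0183), a difference that was not called with the upper quartile scaling (0.16) or without Day 1 replicate 2 (0.56) or 3 (0.58) or Day 60 replicate 1 (0.46). Its newborns spread widely, at 10.4, 23.2 and 17.9 FPKM, with the lowest value in replicate 1. The fall from Day 1 to Day 20 was -1.08 ± 0.23 (adjusted p = 0.000198). From Day 0 to Day 1 the difference was 0.58 (adjusted p = 0.0539), which did not pass with all mice and passed in 5 of the 36 fits that left out 1, and it passed with TPM at 0.70.

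Plin5, whose product couples droplets to mitochondria in tissues that burn fat, had the largest change at birth of the 9 genes. Before birth it was 0.451, 0.537 and 0.815 FPKM. In the newborns it was 28.5, 13.7 and 12.8 FPKM, and at Day 1 it was 24.2, 19.8 and 44.6 FPKM. All newborns lay above all prenatal mice, while newborns and Day 1 mice overlapped. The rise at birth was 3.51 ± 0.23 (adjusted p = 8.26e-13), and it was 3.16 without Day 0 replicate 1, the newborn with high muscle markers and the highest Plin5 of its age. The further rise to Day 1 was 0.67 ± 0.23 (adjusted p = 0.0293), and it was lost without Day 0 replicate 2 (0.52), Day 0 replicate 3 (0.47) or Day 1 replicate 3 (0.34). With the upper quartile scaling this rise was 0.52 and did not pass (limma adjusted p = 0.125). From Day 3 on its means lay between 8.18 and 11.4 FPKM, and none of these ages differed from Day 60 in FPKM, while Day 3 was lower with the upper quartile scaling (-0.71). The fall from Day 1 to Day 20 was -1.43 ± 0.23 (adjusted p = 5.58e-06).

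Plin4, a perilipin of adipose tissue and muscle, was close to undetected, with single mice between 0.00557 and 0.501 FPKM. The highest value was that of Day 0 replicate 1, and the other newborns had 0.0769 and 0.0622 FPKM. Plin1, the perilipin of adipocytes, was not above 0.122 FPKM in any mouse and was listed at 0 in 26 of 36.

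The makeup of the perilipin pool therefore moved through birth. Plin2 was 79.0% ± 2.11 (SD, n = 3) of the summed FPKM of Plin2 to Plin5 at Day -2, 71.3% ± 3.99 at Day 0 and 90.0% ± 0.342 at Day 1. Plin5 went from 0.527% ± 0.156 to 14.4% ± 5.83 and then to 5.30% ± 1.21. Plin3 went from 20.5% ± 1.96 to 14.1% ± 6.34 and 4.71% ± 0.886. Its shares in single mice overlapped between Day -2 (18.9% to 22.7%) and Day 0 (7.67% to 20.3%). Day 0 replicate 1, the newborn with high muscle markers, had the lowest Plin3 (10.4 FPKM) and the highest Plin5 (28.5 FPKM) of the newborns. The shares of Plin2 in single mice did not overlap between Day 0 (67.6% to 75.5%) and Day 1 (89.6% to 90.2%). The ratio of Plin5 to Plin2 over suckling and after weaning differed by 0.01 on the log2 scale (exact permutation test, p = 0.952), and that of Plin2 to the other perilipins by -0.02 (exact permutation test, p = 0.895).

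**Figure D4:**
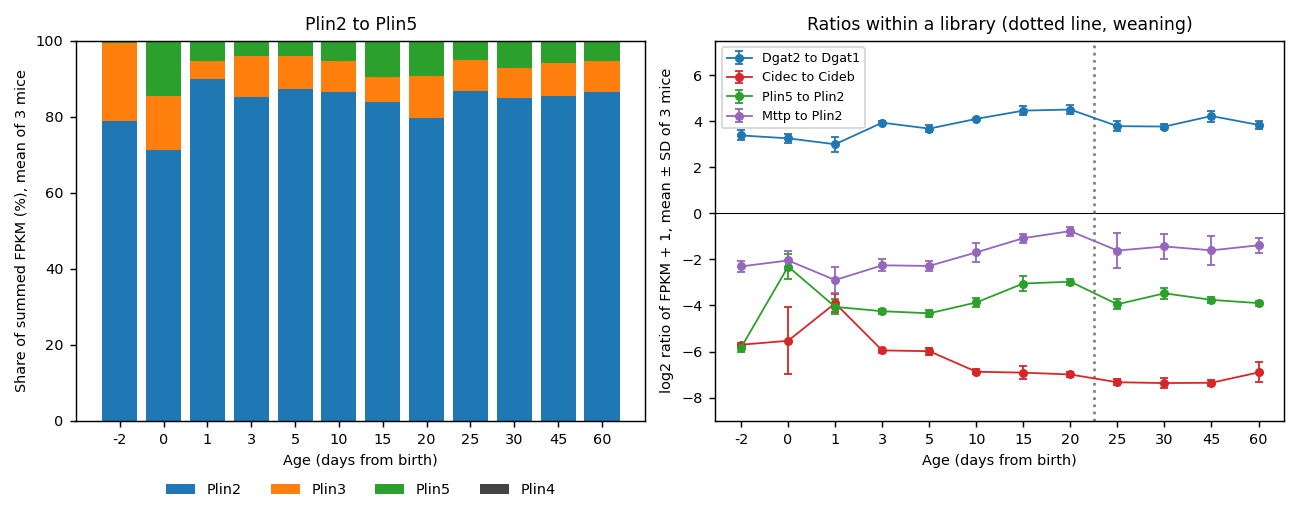
Left, mean share (%) of each of Plin2, Plin3, Plin5 and Plin4 in their summed FPKM by age (stacked bars, mean of 3 mice, with Plin4 too small to be seen). Right, log2 ratios of FPKM + 1 within a library by age (points, mean of 3 mice, bars SD). The x axes give the age in days from birth, evenly spaced. Plin2 reaches 90.0% at Day 1, and the ratio of Cidec to Cideb is highest at that age. Cidec means are under 1 FPKM at Day -2 and from Day 10 on, where the added 1 FPKM weighs on its ratio.

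The CIDE genes encode proteins at contacts between droplets. CIDEB is the hepatocyte form, which acts in VLDL lipidation, and CIDEC (FSP27) promotes the growth of large droplets in fat cells and fatty liver. Cideb was 49.8, 60.9 and 50.3 FPKM at Day -2 and 69.9, 89.1 and 89.4 FPKM at Day 0. At Day 1 it was 162.9, 163.6 and 187.1 FPKM. The 3 ages did not overlap, and the steps were 0.61 ± 0.15 (adjusted p = 0.00103) and 1.05 ± 0.15 (adjusted p = 4.28e-06). Later means lay between 137.6 and 200.7 FPKM, and of these only Day 3 differed from Day 60, by -0.38 (adjusted p = 0.0238). That call was lost without Day 3 replicate 1 (-0.26) or Day 60 replicate 2 (-0.36) or 3 (-0.37), and with the upper quartile scaling Days 1 and 5 were lower as well (-0.55 and -0.80). Averaged over ages, Cideb was lower in suckling than after weaning, by -0.27 (adjusted p = 0.000565). Across weaning all Day 25 mice (177.5, 238.0 and 186.7 FPKM) lay above all Day 20 mice (147.2, 146.0 and 151.1 FPKM), but the difference of 0.42 did not pass in FPKM (adjusted p = 0.0809) and passed with TPM, at 0.45.

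Cidec was nearly absent before birth and high for a single age. Its prenatal values were 0.00788, 0.104 and 0.0224 FPKM. At Day 0 they were 3.87, 0.0810 and 0.102 FPKM, so that 2 of the 3 newborns lay within the prenatal range and replicate 1 did not. At Day 1 all mice were higher, with 10.1, 7.32 and 15.4 FPKM, and no mouse of another age exceeded 3.87 FPKM. The rise to Day 1 was 2.68 ± 0.32 on the log2(FPKM + 1) scale (6.39-fold, adjusted p = 3.60e-07), which understates the change of a low gene, and it was 3.40 without Day 0 replicate 1. The rise from Day -2 to Day 0 passed (0.78, adjusted p = 0.0409) but was 0.06 without that mouse and did not pass, and it was also lost without any 1 of the prenatal mice (0.76 to 0.82). The call was lost as well with the upper quartile scaling (0.77, limma adjusted p = 0.0552) and with no filter on low values.

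Cidec had fallen by Day 3, to 1.06, 1.26 and 1.36 FPKM, and by Day 20 it was 0.0794, 0.210 and 0.215 FPKM. The difference between Days 20 and 1 was -3.30 ± 0.32 (adjusted p = 7.41e-10). Day 5 was still above Day 60 (0.75, adjusted p = 0.0432) but not with the upper quartile scaling (0.44), nor without Day 5 replicate 1 (0.61) or 2 (0.70) or Day 60 replicate 2 (0.64) or 3 (0.64). At Day 60 the mice had 1.02, 0.283 and 0.288 FPKM, and the first of these also had the highest summed markers of exocrine pancreas (18790 FPKM) and of adipocytes (4.39 FPKM). Cidec made up 5.91% of the pair with Cideb at Day 1 and 0.0768% at Day 30. Its log2 ratio to Cideb (of FPKM + 1) was 1.14 higher in suckling than after weaning (exact permutation test over ages, p = 0.0476, adjusted p = 0.238 over 5 ratios, where 0.00952 is the smallest p that 210 splits allow). Cidec means were under 1 FPKM from Day 10 on, so the added 1 FPKM weighs on this ratio. The third family member, Cidea, known from brown fat, was below the level tested, with its highest values at Day 0 (1.53, 0.391 and 0.691 FPKM) and Day 1 (0.518, 0.215 and 1.40 FPKM).

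The summed markers of fat cells also varied with age. The 6 adipocyte markers, 2 of which are Plin1 and Cidea, summed to between 0.0277 and 0.0563 FPKM in the prenatal livers, between 0.424 and 1.57 FPKM in the newborns and between 0.286 and 1.42 FPKM at Day 1. Most of these sums at Days 0 and 1 was Cidea alone, in every mouse. It had 1.53, 0.391 and 0.691 FPKM in the newborns and 0.518, 0.215 and 1.40 FPKM at Day 1. From Day 3 to Day 10 single mice had between 0.0845 and 0.253 FPKM, and 1 mouse of Day 60 had 4.39 FPKM. The highest level in any mouse was 3.17 FPKM for Cfd, 1.53 for Cidea, 0.786 for Adipoq, 0.251 for Retn, 0.122 for Plin1 and 0.0188 for Lep, which was listed at 0 in 34 of 36. The 6 brown adipocyte markers, a list added after the data were seen, summed to between 2.99 and 5.53 FPKM before birth, between 8.08 and 12.4 FPKM in the newborns, between 3.50 and 3.72 FPKM at Day 1 and between 1.47 and 1.75 FPKM at Day 3. Of these, Cox7a1 reached 9.11 FPKM, Cox8b 1.79, Ppargc1a 0.884, Ucp1 0.0127 (0 in 29 mice) and Otop1 0.00497 (0 in 33). The part of fat cells in the Cidec values was not tested.

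Pnpla2 encodes adipose triglyceride lipase, which takes the first fatty acid off stored triglyceride. It was 8.42, 7.72 and 7.72 FPKM at Day -2, 48.0, 13.03 and 20.96 FPKM at Day 0, and 37.6, 29.3 and 34.1 FPKM at Day 1. All newborns lay above all prenatal mice, and replicate 1 of the newborns was above every mouse of Day 1. The rise at birth was 1.47 ± 0.25 (adjusted p = 2.06e-05) and still passed at 0.97 without Day 0 replicate 1. The rise to Day 1 did not pass with all mice (0.48, adjusted p = 0.138) and passed without that newborn, at 0.97. Its later means lay between 13.3 and 22.9 FPKM. Day 1 was above Day 60 by 0.92 (adjusted p = 0.00188), a call lost with the upper quartile scaling. Over suckling it was 0.41 higher than after weaning (adjusted p = 0.00162), which was 0.02 with that scaling.

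**Figure D5:**
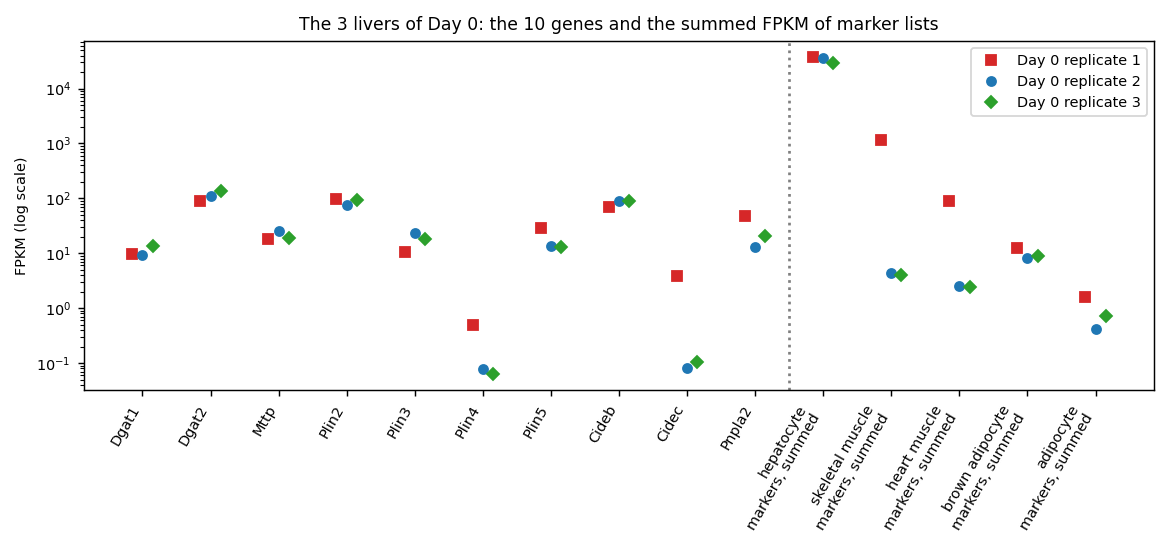
FPKM (y axis, log scale) of the 10 genes and the summed FPKM of marker lists (x axis) in the 3 newborn livers of Day 0, 1 symbol per mouse. Replicate 1 (red squares) has 1169 FPKM of skeletal muscle markers and is the highest of the 3 for Plin2, Plin4, Plin5, Cidec and Pnpla2, while it is the lowest for Mttp, Dgat2, Plin3 and Cideb.

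Day 0 replicate 1 was above both other newborns by the most for Cidec, Plin4, Pnpla2 and Plin5, and Plin2 differed little among the newborns. The summed brown adipocyte markers of this mouse were 12.4 FPKM compared with 8.08 and 8.74 FPKM in the other newborns. Its adipocyte markers were 1.57 FPKM compared with 0.424 and 0.706 FPKM. Cidea, which is in both lists, was 1.53 FPKM in this mouse and 0.391 and 0.691 FPKM in the others, most of the adipocyte sums. Ucp1 was not above 0.0127 FPKM in any mouse. The part of other tissues in these values was not tested. Without this mouse 3 genes rose at birth (Plin5, Cideb and Pnpla2) and 6 to Day 1 (Mttp, Plin2, Plin5, Cideb, Cidec and Pnpla2).

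Over all ages from Day 1 to Day 20 set against all from Day 25 to Day 60, 3 of the 9 genes were higher in suckling (68.1% of all genes), namely Plin2, Cidec and Pnpla2, and Cideb was lower (11.7% of all genes). The median gene of the whole table was 0.39 higher in suckling, and the median of the 9 was 0.12. With the upper quartile scaling, where the median gene was 0.13 higher, Cidec alone rose and 6 fell. Of all genes called, 85.4% were higher in suckling in FPKM and 63.7% on that scale. The mean log2 ratio of Mttp to Plin2 (FPKM + 1) within a library was -2.90 ± 0.57 at Day 1, -0.77 ± 0.19 at Day 20 and -1.39 ± 0.32 at Day 60 (SD, n = 3). That ratio over suckling and after weaning differed by -0.32 (exact permutation test over ages, p = 0.462).

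The other genes of the pathway were followed as lists, chosen with earlier results of these data known. Of 15 tested genes of triglyceride synthesis upstream of DGAT (18 listed), 6 rose and 1 fell from Day 0 to Day 1 (23.7% and 7.88% of all genes), and 1 rose and 9 fell from Day 1 to Day 20 (8.61% and 54.2% of all genes). Its most abundant genes all rose on the first day: Agpat2, which makes phosphatidic acid, by 0.77 (76.1 to 129 FPKM), and Acsl1 and Acsl5, which activate fatty acids, by 0.95 and 0.64. Acsl5 fell to 45.8 FPKM at Day 20 and rose to 122 FPKM at Day 25, by 1.39 (adjusted p = 4.09e-06). The median of this list from Day 0 to Day 1 was 0.41, where that of all genes was 0.19.

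Of 17 tested genes of VLDL assembly and export (18 listed), 7 rose and 0 fell from Day 0 to Day 1, where 23.7% of all genes rose and 7.88% fell. By Day 20 3 of them had risen and 5 had fallen relative to Day 1, where 8.61% of all genes rose and 54.2% fell. Ces1d, a triglyceride hydrolase of the endoplasmic reticulum that mobilizes fat for VLDL, rose at each step to Day 25, from 4.81 FPKM at Day -2 to 27.5, 49.9, 144 and 255 FPKM at Days 0, 1, 20 and 25. Aadac, a related lipase, rose by 0.50 to Day 1 and by 0.90 to Day 20. P4hb, the protein disulfide isomerase that is the partner subunit of MTTP, was at 562 FPKM at Day 0 and 471 FPKM at Day 1 and passed at none of the steps, while Mttp rose 2.97-fold from Day 0 to Day 1. Apob itself did not pass from Day 0 to Day 1 (10.9 to 30.1 FPKM, 1.21 ± 0.66, adjusted p = 0.157).

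Of 14 tested droplet coat and formation genes other than the perilipins and CIDE genes (17 listed, 16 in the table), 6 rose and 3 fell at birth (13.1% and 41.4% of all genes) and 5 rose and 0 fell to Day 1 (23.7% and 7.88%). Mettl7b, a droplet-associated methyltransferase, went from 0.122 FPKM at Day -2 and 0.824 at Day 0 to 19.1 at Day 1, 314 at Day 20 and 657 at Day 25, and rose at every one of these steps. Hsd17b13, a droplet protein of hepatocytes, rose by 2.15 at birth and 0.86 to Day 1 and fell by -0.56 to Day 20. Aup1 passed at none of these steps. In the list of lipolysis and lipophagy (13 tested of 15), 7 rose and 1 fell from Day 0 to Day 1 (again beside 23.7% and 7.88% of all genes), including the lysosomal genes Lamp2 (1.13) and Lipa (1.27) and the secreted lipase gene Lipc (0.78). Over the same step the summed level of 6 Kupffer cell and macrophage markers went from between 48.4 and 81.3 FPKM to between 123.8 and 146.5 FPKM, and their part in these values was not tested.

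Among 11 regulators of droplet or VLDL genes, 5 rose and 1 fell at birth, beside 13.1% and 41.4% of all genes, and 3 rose and 1 fell to Day 1, beside 23.7% and 7.88%. Creb3l3, a membrane-bound transcription factor of the hepatocyte, was the one most abundant, and it was highest at Day 1 of the ages tested in steps: 15.6, 62.3, 154 and 72.2 FPKM at Days -2, 0, 1 and 20, with each step past the test. Hnf4a (0.36) and Nr1h3 (0.30) did not pass from Day 0 to Day 1, and Nr1h3, which encodes LXRα, rose by 1.02 from Day 1 to Day 20. Hilpda was listed among the droplet coat and formation genes above, and its own values are not reported here.

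The members fell into different courses over the 12 age means of log2(FPKM + 1), given here as descriptions, since all share the same 36 libraries. Mttp and Cideb were most alike among them (r = 0.93), followed by Plin5 and Pnpla2 (r = 0.87), Plin2 and Cidec (r = 0.84) and Dgat1 and Cidec (r = 0.81). Dgat2 and Plin3 were the most opposed (r = -0.62). Over all tested genes the closest to Mttp were Hsd17b4 (r = 0.99) and Tspan12 (r = 0.97), and to Cideb Acaa1b (r = 0.98) and Tm2d2 (r = 0.98). For Dgat2 they were Acox2 and Lrp1 (both r = 0.96), for Pnpla2 Adh7 (r = 0.96) and Glt1d1 (r = 0.91), and for Dgat1 Wfdc15b (r = 0.86) and Zfp768 (r = 0.83). For Plin2 they were Als2cl and Gstt2 (both r = 0.91), for Plin3 Dock8 (r = 0.95) and Lcp1 (r = 0.93), for Plin5 Fgb and Qsox1 (both r = 0.95), and for Cidec Fxyd2 (r = 0.97) and Tmem27 (r = 0.96).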

How the data were processed

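Poly-A RNA of whole liver was sequenced from 36 mice (TruSeq v2 kit, not stranded). The authors aligned reads to mm9 with TopHat 1.2.0 and estimated FPKM with Cufflinks 1.0.3, and the deposited table holds 1 FPKM value per gene and mouse. The table gives no counts. A scale per gene and a depth per mouse were fitted to the values of 1371 low genes so that these came near whole fragments. The fitted relative depths ran from 0.88 to 1.16, and 80.5% of the values were then whole fragments to within 0.1. The 20% of unrelated values holds only without such a fit, so this share does not check the depths. Summed FPKM per mouse ran from 353712 to 450597.

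The 10 genes and the lists were chosen with earlier results of these data known. FPKM + 1 was log2 transformed, genes whose mean reached 1 FPKM at some age were kept, and all 36 mice were fitted with 1 mean per age (limma 3.58.1 in R 4.3.3, trend, Benjamini-Hochberg over genes within a comparison, or over genes and all 11 comparisons for the count in any age). The method was tested on simulated data. Ratios were compared by two-sided exact permutation of age means (scipy 1.17.1). Named were the 10 genes, their Plin and CIDE relatives, the 3 most abundant genes of each list and the 2 genes most correlated with each member. Apob was named after its values were seen. Alternatives were a pseudocount of 0.1, other filters, a common upper quartile, TPM, a replicate block, no trend, adjustment within each comparison, Dunnett's test, each mouse left out, and, chosen after seeing the data, the 3 libraries lowest in long transcripts left out.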

Additional observations from a re-analysis of the deposited data

How the results depend on the processing

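With a common upper quartile, 6 of the 9 genes differed from Day 60 at Day 3, 5 of them at Day 5 and 2 at Day 10, and 7 differed between suckling and the ages after weaning. The direction turned for the change from Day 1 to Day 20 of Mttp (0.14), Dgat1 (0.021) and Cideb (0.34), for Plin2 at birth (0.25), for suckling against later ages of Dgat1 (-0.30), Dgat2 (-0.29), Plin2 (-0.27), Plin3 (-0.27) and Plin5 (-0.22), and for Day 25 to Day 60 of Dgat1 (-0.0196), Plin3 (-0.0188) and Pnpla2 (-0.0729). With TPM, 1 gene differed at Day 3, Cideb across weaning (0.45) and Plin3 from Day 0 to Day 1 (0.70) passed, Plin2 in suckling against later ages did not (0.08), and Dgat1 (-0.0044), Plin3 (-0.0042) and Pnpla2 (-0.0593) turned between Days 25 and 60. Without a filter, which tests more genes, 1 differed at Day 5. Without the 3 libraries lowest in long transcripts, 2 differed at Day 10, and Mttp from Day 25 to Day 60 (-0.1294) and Dgat1 across weaning (-0.0293) turned. Leaving out 1 mouse gave counts from 1 to 3 at Day 3, 0 to 3 at Day 5, 0 to 2 at Day 10, 1 to 2 at Day 20 and 1 to 2 across weaning. It gave ranges that span 0, none of them a called difference, for Mttp across weaning (-0.2182 to 0.564) and to Day 60 (-0.1294 to 0.6528), Dgat1 across weaning (-0.0293 to 0.1229) and to Day 60 (-0.0188 to 0.1548), Plin2 at birth (-0.0694 to 0.087), Plin3 (-0.0625 to 0.2357) and Pnpla2 (-0.026 to 0.0795) to Day 60, and the ratio of Plin5 to Plin2 (-0.0124 to 0.0462). The cause of these changes was not tested. Over all settings other than leaving out a mouse, 396 of the gene differences kept their direction and side of the threshold, 8 lost the call, 11 gained it and 17 turned.

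Mice share replicate numbers across ages without a stated meaning. Same-numbered mice of different ages had a median correlation of deviations of 0.13 (range -0.68 to 0.83, 198 pairs) and others -0.05 (396 pairs). Deviations within an age cancel out, so these medians depend on each other and cannot settle whether the numbers pair mice. The contrast of long and short transcripts was positive in replicate 1 at all ages but Days 0 and 30. As the labels do not say what the numbers mean, the main fit did not use them. A replicate block brought Dgat1 (0.36) and Plin3 (-0.48) at birth and Plin3 from Day 0 to Day 1 (0.58) past the threshold, and calls from Day 0 to Day 1 over all genes went from 3519 to 4086. The precision is limited by 3 mice per age and by FPKM without counts, so no counting interval can be given.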
